A study of Vitis rotundifolia with 36 samples.

Results

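Of 26394 gene models counted in ripe berries of the muscadine grape (Vitis rotundifolia), 40 were selected on their levels, which in the cultivar Granny Val exceeded those in Alachua and Supreme in every one of 4 tissue layers. Levels are CPM, a model's read count per 1000000 counts of the library's total over gene models. For each model the mean CPM of the 3 libraries was taken in each of 12 groups of cultivar and layer. The 11397 models with a mean of at least 2 CPM in all 4 Granny Val layers were ranked by a ratio. Its numerator is the lowest Granny Val layer mean plus 0.1, and its denominator the highest layer mean of Alachua and Supreme plus 0.1. The 40 largest ratios define the set. The level in Granny Val against Alachua and Supreme therefore chose the models, and it is described below without a test.

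Polyadenylated RNA was sequenced from 36 libraries, 12 from each cultivar, made of 4 layers with 3 replicates each. Granny Val is green with skin of intermediate thickness, Alachua is purple with thick skin, and Supreme is purple with thin skin. The plants were grown in a single research vineyard in Florida and carried no stated treatment. Each cultivar is 1 genotype and Granny Val alone was green, so cultivar and berry colour cannot be told apart. The layers run from 1 at the outside to 4 at the inside. Their names conflict, since the protocol lists epidermis/cuticle, hypodermis, mesocarp, endocarp and the tags of the samples list Cuticle, Exocarp, Endocarp, Seed. The layer numbers alone are used here. How many berries went into a library is not stated.

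The outer layers of a grape berry form the skin, which carries the waxy cuticle and, in dark cultivars, the anthocyanin pigments, while the inner layers form the juicy flesh. Many genes of such a fruit are used in all layers, and the levels of some shift from skin to flesh. A transcript that is high in all layers of 1 cultivar and low in all layers of another follows the plant rather than the tissue.

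The files give each model as an identifier with a chromosome and a running number along it, such as evm.model.chr18.3740, and pair none with a gene name. A gene table of the Carlos assembly was at hand, but 0 of the 26394 identifiers occur in it. No name, function, coordinate or sequence is therefore given for any of the 40. Markers that would show the identity of a layer could not be looked up for the same reason.

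Library totals lay between 19057538 and 61782400 counts, and between 37260186 and 57280785 in Granny Val. By scores from models that separate the layers within Granny Val, 6 of the 24 Alachua and Supreme libraries lay nearer another layer than their label. They were Alachua layer 2 replicate 3, Alachua layer 3 replicate 1, Alachua layer 4 replicates 2 and 3, and replicate 1 of Supreme layers 1 and 2. Without these libraries the rule found 37 of the 40 models again. Replicate 3 of Granny Val layers 2 and 3 also stood apart, with 13955 and 14019 models that had a count, where the other Granny Val libraries had 15359 to 19316. Of the 11397 models, 106 and 142 were at 0 in these 2 libraries, where the others had 0 to 27 at 0. For 13 of the 40 models the lowest Granny Val library was one of this pair, and without both the rule found 31 of the 40 again. In bulk tissue, fewer cells of a type and less RNA per cell cannot be told apart. CPM is not divided by transcript length, so that levels are compared here between libraries and not between models.

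The ratio fell steeply along the set. It was 116 for the first model and at least 7 for 6 models, at least 4 for 7 and at least 2 for 12, while 15 models had a ratio under 1.5. The last model inside was evm.model.chr2.432, with a lowest Granny Val layer mean of 29.9 CPM, a highest other layer mean of 23.3 CPM and a ratio of 1.2838. The first model outside, evm.model.chr7.990, had 26.8 CPM, 20.9 CPM and a ratio of 1.2822. Both overlapped between cultivars. Granny Val libraries reached as low as 14.1 CPM for evm.model.chr2.432, against up to 27.3 CPM in Alachua and 27.2 CPM in Supreme. "High in every layer" thus described group means for all 40 models and single libraries for few of them.

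In 9 of the 40 models every Granny Val library lay above every Alachua and Supreme library. Of all 19241 models that passed the filter on low counts, 10 (0.052%) did so, and 22 (0.114%) lay entirely below. All 40 passed that filter. In 23 of the 40, at least 10 of the 12 Granny Val libraries exceeded every other library, and in 5 at most 6 did. A single library often set the limit, since Granny Val layer 3 replicate 2 was the lowest Granny Val library for 10 of the 40. Without it, 12 of the 40 were separate, and the rule found 37 of the 40 again. Without replicate 3 of Granny Val layers 2 and 3, 10 of the 40 were separate.

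**Figure D1:**
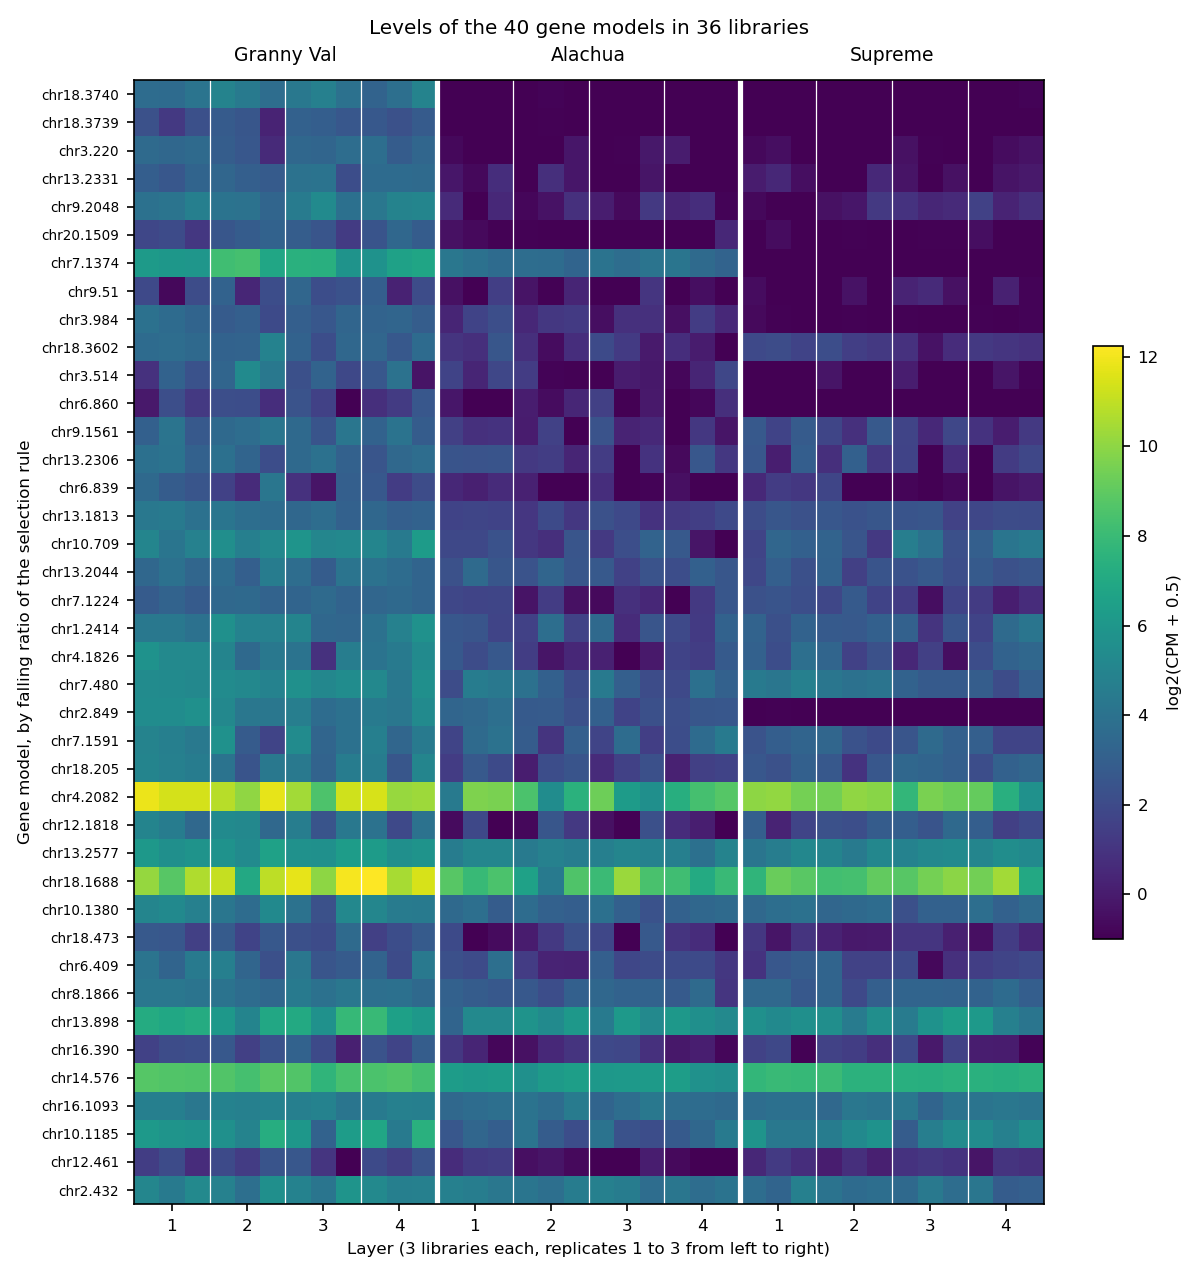
Level of each of the 40 gene models (rows, by falling ratio of the selection rule) in each of the 36 libraries (columns, by cultivar, layer and replicate), as log2(CPM + 0.5). The first 7 rows change sharply between Granny Val and at least 1 other cultivar, and the lower rows, where 15 models have a ratio under 1.5, change by small steps.

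The first model, evm.model.chr18.3740, was read in every Granny Val library and almost nowhere else. In Granny Val it had 12.2, 11.8 and 16.9 CPM in layer 1, 29.8, 20.8 and 12.9 CPM in layer 2, 19.6, 26.6 and 14.7 CPM in layer 3, and 8.82, 13.8 and 30.1 CPM in layer 4. Alachua gave 2 counts in all, both in layer 2 replicate 2, and Supreme gave 2 counts, both in layer 4 replicate 3. The Granny Val total was 9959 counts. Counts were summed over the 12 libraries of a cultivar and divided by their summed library totals. On that scale Granny Val stood 4838-fold above Alachua (95% counting interval 1339 to 39955) and 5331-fold above Supreme (1476 to 44029.6). These intervals cover counting error only. The spread within a Granny Val layer was as wide as the differences between its layers.

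The second model, evm.model.chr18.3739, bears the adjacent running number and had the same distribution over cultivars. Its 12 Granny Val libraries had a lowest value of 0.771, a median of 5.47 and a highest value of 8.22 CPM. Alachua gave 1 count, in the same library as the 2 counts of evm.model.chr18.3740, and Supreme gave 0. Granny Val was at least 992-fold higher than Supreme, taking 3 counts over its 12 libraries as the floor that a count of 0 allows. The lowest library was Granny Val layer 2 replicate 3, with 33 counts. Across the 12 Granny Val libraries the log levels of the adjacent pair had a Pearson r of 0.49, and of 0.55 without replicate 3 of layers 2 and 3, descriptions over libraries that share layers and sampling. The order by level also differed, with the highest layer mean of evm.model.chr18.3740 in layer 2 (21.2 CPM) and that of evm.model.chr18.3739 in layer 3 (7.06 CPM). Whether the pair are similar in sequence, which could let reads be exchanged between them, could not be checked.

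For the next models by the ratio, Alachua and Supreme gave some reads, but many of their libraries gave none. The third, evm.model.chr3.220, ranged over 1.00, 10.0 and 13.5 CPM (lowest, median and highest library) in Granny Val. It reached at most 0.504 CPM in Alachua and 0.280 CPM in Supreme, with 0 counts in 7 of the 12 Alachua and 6 of the 12 Supreme libraries. Only Granny Val layer 2 replicate 3 fell to 1.00 CPM, and the 11 remaining libraries stayed at or above 5.53 CPM. The fourth, evm.model.chr13.2331, had 3.89, 9.68 and 15.9 CPM in Granny Val, with a highest library of 1.20 CPM in Alachua and 0.918 CPM in Supreme, and 0 counts in 6 Alachua and 4 Supreme libraries. Its layer 3 held both its highest Granny Val libraries (15.4 and 15.9 CPM) and its lowest (3.89 CPM), while layer 4 was even at 12.0, 11.9 and 11.4 CPM. The fifth, evm.model.chr9.2048, had 9.39, 17.7 and 40.4 CPM in Granny Val, against a highest library of 1.81 CPM in Alachua and 2.5 CPM in Supreme. It had 0 counts in 1 Alachua and 2 Supreme libraries. No Granny Val library overlapped the Alachua or Supreme libraries, which overlapped each other. Its Supreme levels ran upward from a mean of 0.037 CPM in layer 1 to 1.5 CPM in layer 4, whereas Granny Val layer 1 stood at 19.1 CPM and layer 4 at 27.0 CPM.

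**Figure D2:**
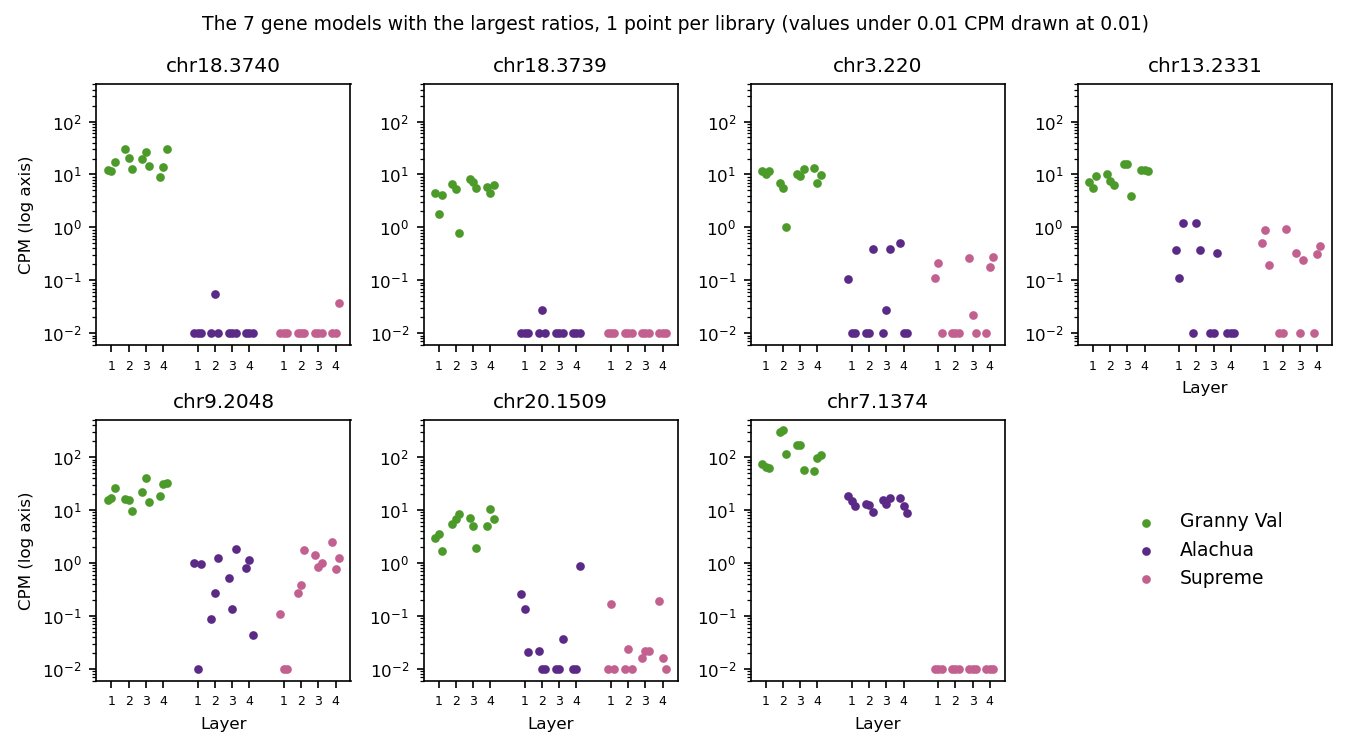
CPM on a log axis in every library of the 7 gene models with the largest ratios, by cultivar and layer, 1 point per library and values under 0.01 CPM drawn at 0.01. All Granny Val points lie above all Alachua and Supreme points in each panel; in the last panel Alachua holds an intermediate level of 8.87 to 18.5 CPM.

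Some of the 40 differed in steps across the 3 cultivars. The seventh by ratio, evm.model.chr7.1374, had 53.5, 103 and 327 CPM in Granny Val (lowest, median and highest library) and 8.87, 13 and 18.5 CPM in Alachua. It had 0 counts in all 12 Supreme libraries. Granny Val libraries gave 69137 counts and Alachua libraries 7057. Granny Val was at least 24674-fold higher than Supreme and Alachua at least 2592-fold higher, against a floor of 3 counts over the 12 Supreme libraries. No library of a cultivar reached into the range of another.

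Within Granny Val, evm.model.chr7.1374 was also the model whose level changed between layers. It had 73.5, 63.8 and 61.6 CPM in layer 1, 294, 327 and 114 CPM in layer 2, 172, 166 and 56.5 CPM in layer 3, and 53.5, 96.4 and 110 CPM in layer 4. Layer 1 lay below layer 2 in all libraries, with a log2 fold change of -1.95 (SE 0.36, edgeR's quasi-likelihood test, Benjamini-Hochberg adjusted p = 0.00834 over 19241 models). Over all 4 layers its adjusted p was 0.00437 by edgeR. Both calls were kept without replicate 3 of layers 2 and 3 (adjusted p = 0.00171 and 0.000816 by edgeR). Alachua had no such peak, with layer means of 15.1, 11.5, 15.2 and 12.5 CPM from layer 1 to layer 4. The step from layer 1 to layer 2 was not compared between cultivars by a test.

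A pair of models with nearby running numbers had the same layer of highest level as evm.model.chr7.1374 and were named after their values were seen. They missed the set because their lowest Granny Val layer means were under 2 CPM. For evm.model.chr7.1377 the Granny Val layer means were 3.69, 11.1, 3.45 and 1.90 CPM from layer 1 to layer 4, with 21 counts in all of Alachua and 1 in Supreme. For evm.model.chr7.1378 they were 0.839, 11.6, 2.70 and 2.30 CPM, with 0 counts in Alachua and Supreme. Over the 12 Granny Val libraries their log levels had a Pearson r of 0.78 and 0.86 with evm.model.chr7.1374, and of 0.77 and 0.96 over the 10 libraries without replicate 3 of layers 2 and 3. Alachua thus read evm.model.chr7.1374 in every library while giving 21 counts and 0 counts for its neighbours at 3 and 4 numbers away.

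**Figure D3:**
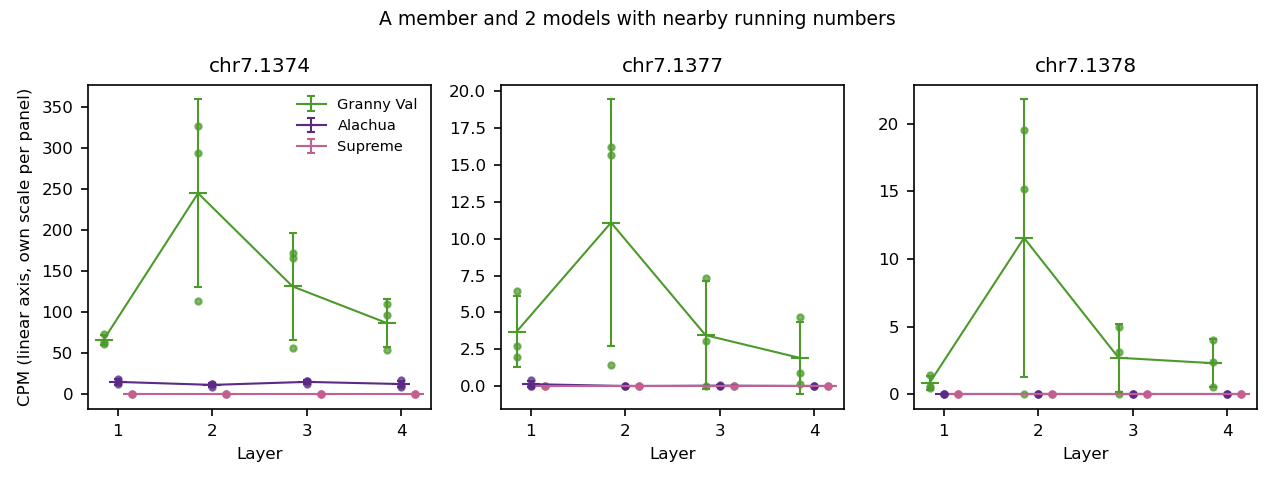
CPM (linear axes, a scale of its own in each panel) of evm.model.chr7.1374 and of 2 models 3 and 4 running numbers away, by layer and cultivar; points are libraries, and crosses with bars are the mean ± SD of 3. In Granny Val all panels have their highest mean in layer 2 (245, 11.1 and 11.6 CPM), and Alachua has reads in the first panel at 11.5 to 15.2 CPM per layer.

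The 3 models with the most reads in Granny Val stood far down the ratio. For evm.model.chr18.1688 the libraries had 129, 1789 and 4889.7 CPM in Granny Val (lowest, median and highest), 21.2, 277 and 1217 CPM in Alachua, and 129.6, 500.2 and 1379.6 CPM in Supreme. The cultivars overlapped widely, and Granny Val replicate 2 gave the lowest value of each layer. For evm.model.chr4.2082 the libraries had 379, 2149 and 3672 CPM in Granny Val, 20.6, 254 and 818 CPM in Alachua, and 51.8, 701 and 1107 CPM in Supreme. Here 10 of the 12 Granny Val libraries exceeded every other library. For evm.model.chr14.576 the libraries had 202, 393 and 458 CPM in Granny Val, 45.6, 73.0 and 84.6 CPM in Alachua, and 158, 178 and 261 CPM in Supreme. In this case a single Granny Val library, layer 3 replicate 2 at 202 CPM, lay within the range of Supreme, and every Alachua library lay below both.

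The first 2 of these models carried most of the reads of the set. Summed over all 40, the level had a median of 5495 CPM in Granny Val, 801 CPM in Alachua and 1734 CPM in Supreme. Without evm.model.chr18.1688 and evm.model.chr4.2082 the sum ran from 852 to 1489 CPM in Granny Val, 251 to 328 CPM in Alachua and 363 to 516 CPM in Supreme. On that sum of 38 models no cultivar overlapped another, and since the models were chosen for it, the order of Granny Val above the others is part of the choice. The sum had a median of 276 CPM in Alachua and 439 CPM in Supreme. Much of that gap lay in evm.model.chr14.576 alone, with means of 69.0 and 194 CPM, so it is not a trait of all 38.

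**Figure D4:**
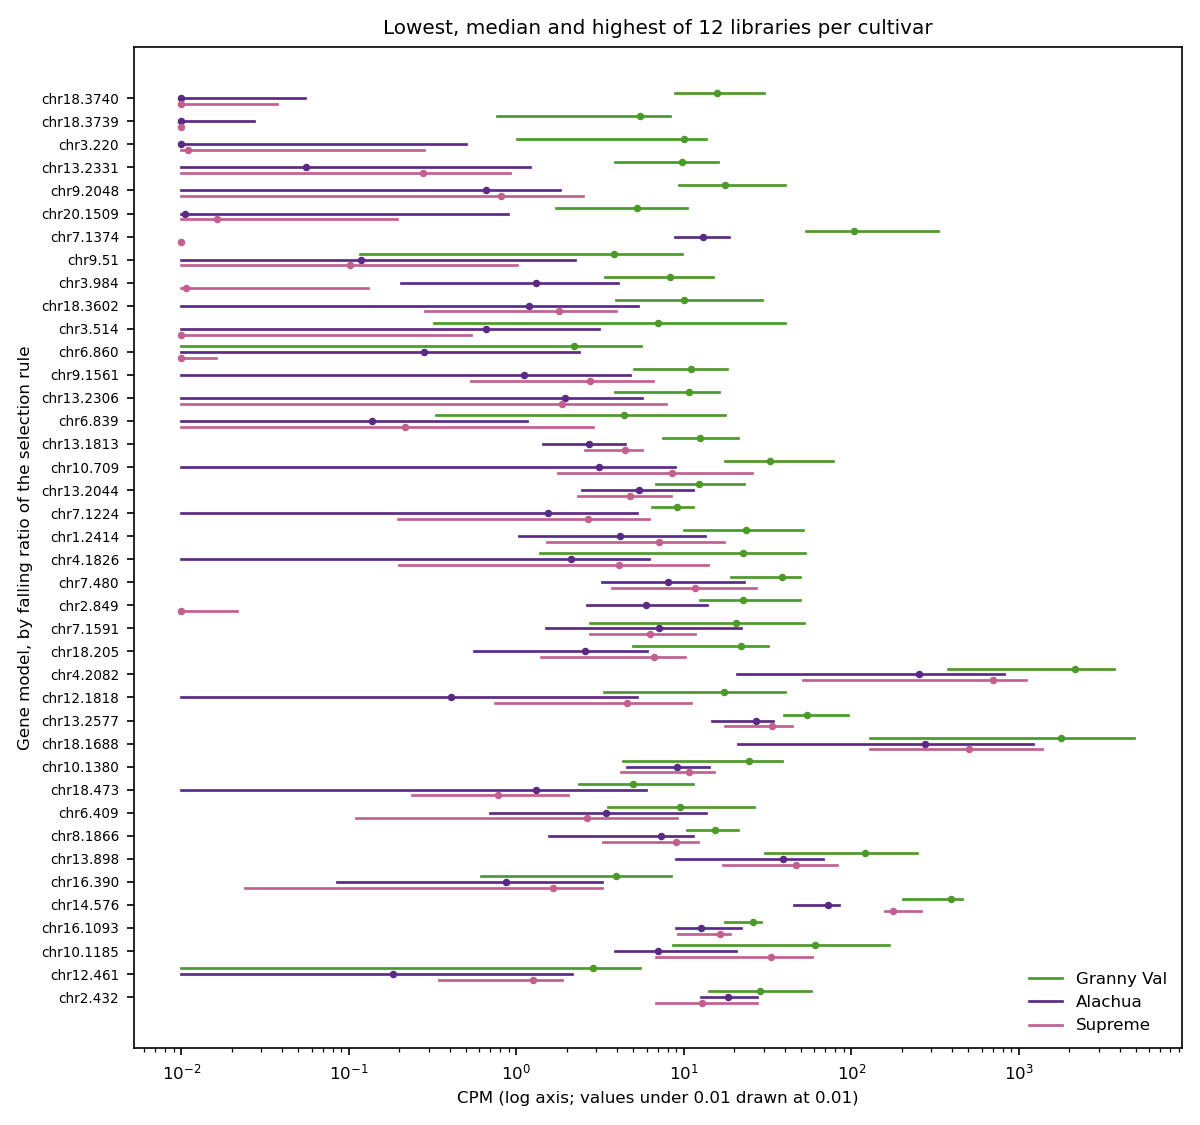
Lowest, median (dot) and highest of 12 libraries per cultivar for each of the 40 gene models, as CPM on a log axis with values under 0.01 drawn at 0.01. The Granny Val line lies clear of both other lines in 9 models, and the Supreme values of evm.model.chr7.1374 and evm.model.chr2.849 lie near the left edge while their Alachua values do not.

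The next comparison asked how the set varied between layers within Granny Val, a contrast that the rule did not use. The rule ranks on the lowest layer, so that it favours models with even layers. The highest Granny Val layer was layer 1 for 13 models, layer 2 for 12, layer 3 for 7 and layer 4 for 8. Among all 11397 models over the minimum of 2 CPM these shares were 34.9%, 19.0%, 23.8% and 22.3% from layer 1 to layer 4. The highest over the lowest Granny Val layer mean had a median of 1.83 in the set and 1.76 over the 11397, and ranged from 1.11 to 4.78 in the set.

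A layer difference was called in 1 of the 40, evm.model.chr7.1374, by edgeR's quasi-likelihood F test across the 4 layers (adjusted p under 0.05 and at least 2-fold). Of all models tested, 13.6% were called. Without replicate 3 of layers 2 and 3 it was called in 2 of the 40, evm.model.chr7.1374 among them. Layer 1 over layer 2 gave 1 of 40 lower and 0 higher, where 3.08% of all models were called, 2.19% lower and 0.889% higher. Layer 2 over layer 3 gave 0 of 40 (0.0312% of all models, 0.0208% higher and 0.0104% lower) and layer 3 over layer 4 gave 0 of 40 (0% of all models). With the replicate number as a block in a fit of layers 2 and 3 alone, 0 of the 40 and 213 of all models were called for layer 2 over layer 3. Layers 1 and 2 over layers 3 and 4 gave 0 of 40, where 13% of all models were called, 6.29% higher and 6.75% lower. DESeq2 also called 0 in these last 3 contrasts. In the last of them evm.model.chr13.1813, named after its values were seen, missed the call through the 2-fold minimum alone (log2 fold change 0.77, adjusted p = 0.0469 by edgeR). At an unadjusted p under 0.05 edgeR found 1 of 40 for layer 2 over layer 3, 0 for layer 3 over layer 4 and 2 for layers 1 and 2 over layers 3 and 4, against 13.5%, 2.47% and 32.3% of all models. A p that misses the threshold does not show that the layers were alike.

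The change from layers 1 and 2 to layers 3 and 4 in Granny Val was also set against the mean of that change in Alachua and Supreme, a test added after the data had been seen. Only 32 of the 40 passed the filter on low counts within Alachua alone and within Supreme alone. The other 8 entered through Granny Val or a single other cultivar and had too few reads for such a comparison, among them evm.model.chr7.1374 with 0 counts and evm.model.chr2.849 with 2 counts in Supreme. Of the 32, 0 were called by edgeR, where 0.0052% of all models were called, and DESeq2 was not run on it. At an unadjusted p under 0.05 edgeR found 1 of the 32, beside 1333 of all 19241 models. The smallest adjusted p among the 32 was 0.596 by edgeR.

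The remaining comparison set Alachua against Supreme, the cultivars in which the models were low. The rule used the higher of them and not their difference. By the reads of Alachua and Supreme alone, 37 of the 40 passed the filter on low counts. The other 3 were evm.model.chr18.3740, evm.model.chr18.3739 and evm.model.chr20.1509, and the first 2 of these had at most 2 counts in either cultivar, too few for a test. Of the 37, 9 were called by edgeR's test, 5 higher in Alachua and 4 lower, where 6.74% of all models were called, 3.12% higher and 3.62% lower. Within Alachua alone 37 passed the filter and within Supreme alone 32, so some entered only through Alachua, where they were high. Of those called higher, evm.model.chr7.1374, evm.model.chr2.849, evm.model.chr6.860 and evm.model.chr3.984 had 0, 2, 1 and 14 Supreme counts. Their calls are descriptions, and the 9 are not read as an excess over 6.74%. The median log2 fold change of the 40 was -0.05, beside -0.02 over all models. The 20 models whose highest other group was an Alachua layer were as many as those whose highest other group was a Supreme layer, and for 19 of the 40 that group was a layer 1. Without the 6 libraries that lay nearer another layer, 10 of the 40 were called.

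The 5 models called higher in Alachua had at most 68 counts each over the 12 Supreme libraries. With so few Supreme reads, the adjusted p of all 5 are given as descriptions and not as support for a difference. Besides evm.model.chr7.1374 (adjusted p = 2.54e-15 by edgeR), the widest was evm.model.chr2.849, with 2.62, 5.91 and 13.6 CPM in Alachua (lowest, median and highest library) and 2 counts over all of Supreme (adjusted p = 2.54e-15 by edgeR). Over summed counts divided by summed library totals the ratio was 1909, with a 95% counting interval of 528 to 15766.5. In Granny Val the same model had 12.6, 22.7 and 49.2 CPM, and 11 of its 12 libraries exceeded every Alachua library. Its layer 1 was highest in both cultivars that read it, with layer means of 44.7, 24.6, 17.5 and 26.6 CPM from layer 1 to layer 4 in Granny Val, against 11.3, 5.70, 4.86 and 4.96 CPM in Alachua.

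The other 3 of these are named after their values were seen. For evm.model.chr3.984 Alachua libraries gave 818 counts and Supreme libraries 14. Divided by summed library totals, their ratio was 64.4 (95% counting interval 38.2 to 118, adjusted p = 3.8e-08 by edgeR). For evm.model.chr6.860 Alachua gave 282 counts and Supreme 1, a ratio of 311 (55.3 to 12317, adjusted p = 0.00107 by edgeR). For evm.model.chr3.514 Alachua libraries reached 3.09 CPM and Supreme libraries 0.536 CPM (log2 fold change 4.22, SE 1.05, adjusted p = 0.0084 by edgeR). The last of these rested on few libraries. Its call was lost without Alachua layer 2 replicate 1 (adjusted p = 0.0555 by edgeR), and that of evm.model.chr6.860 without Alachua layer 1 replicate 1 (adjusted p = 1 by edgeR) and without the 6 libraries that lay nearer another layer.

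The 4 models called lower in Alachua were read in every Supreme library. For evm.model.chr14.576 the log2 fold change was -1.39 (SE 0.12, adjusted p = 3.02e-09 by edgeR), and the highest Alachua library at 84.6 CPM lay below the lowest Supreme library at 158 CPM. The next, evm.model.chr10.1185, had 3.88, 7.02 and 20.6 CPM in Alachua against 6.84, 32.9 and 58.5 CPM in Supreme (log2 fold change -1.76, SE 0.41, adjusted p = 0.00446 by edgeR), and its ranges overlapped. The third, evm.model.chr10.709, had 0, 3.13 and 8.80 CPM in Alachua against 1.77, 8.44 and 25.4 CPM in Supreme (log2 fold change -1.51, SE 0.48, adjusted p = 0.0367 by edgeR). The fourth, evm.model.chr18.205, was named after its values were seen and had a log2 fold change of -1.10 (SE 0.35, adjusted p = 0.0398 by edgeR). The calls of the last pair were narrow, since leaving out 1 library ended the call of evm.model.chr10.709 in 15 of 24 fits and that of evm.model.chr18.205 in 14 of 24. The call of evm.model.chr10.709 was kept without replicate 3 of Alachua layers 1, 2, 3 or 4, Alachua layer 4 replicate 1, replicate 3 of Supreme layers 2 or 3, or replicate 1 of Supreme layers 1 or 4. That of evm.model.chr18.205 was kept without Alachua layer 1 replicate 2, replicate 2 or 3 of Alachua layers 2 or 4, Alachua layer 3 replicate 3, replicate 2 of Supreme layers 1 or 2, replicate 3 of Supreme layer 3 or replicate 1 of Supreme layer 4. A fit of Alachua and Supreme alone ended both calls (adjusted p = 0.0975 for evm.model.chr10.709 and 0.0565 for evm.model.chr18.205 by edgeR).

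**Figure D5:**
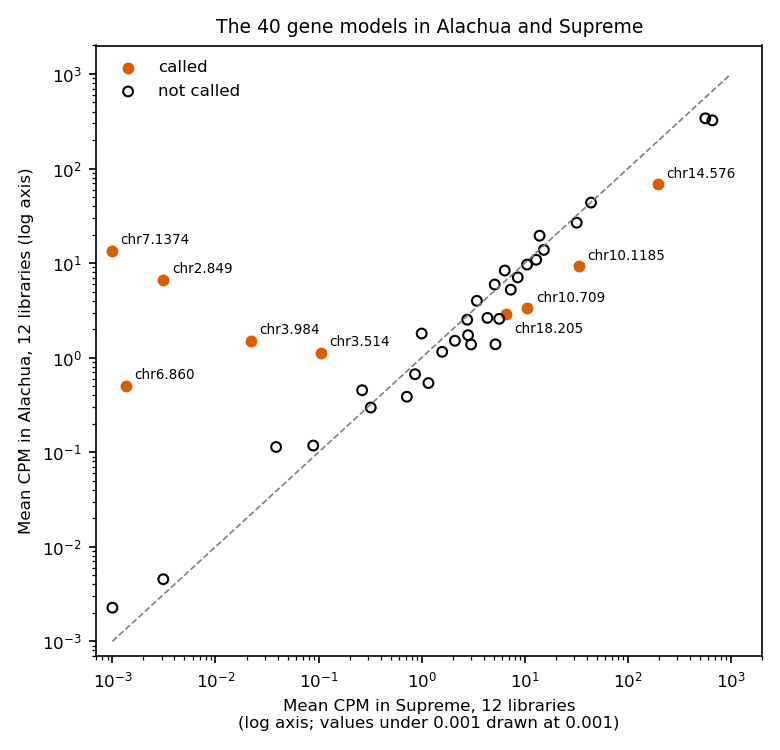
Mean CPM in Alachua against mean CPM in Supreme (12 libraries each, log axes, values under 0.001 drawn at 0.001) for the 40 gene models; filled points are the 9 called between these cultivars and the dashed line marks equal means. The 5 points called higher in Alachua lie at the left, where Supreme is at or near 0, and the 4 called lower lie just under the line.

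The running numbers in the identifiers place the 40 models on 15 of the 20 chromosomes. Chromosomes 13 and 18 held 6 each, or 15% each, where 5.49% and 7.98% of all listed models lie, and chromosome 7 held 4. The sole pair within 10 numbers was evm.model.chr18.3739 with evm.model.chr18.3740. Within 5 numbers on either side of the 40 there were 142 expressed models, those with a mean of at least 1 CPM. Of these, 6.34% were at least 2-fold higher in Granny Val than in the mean of the others and 6.34% at least 2-fold lower, where 3.83% and 6.79% of all 14902 expressed models were. The median log2 difference of these neighbours was -0.01, beside -0.10 for all expressed models. Most neighbours thus lay within a 2-fold difference.

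A further 42 models had a ratio at least as large as that of the last of the 40 but a lowest Granny Val layer mean under 2 CPM. Of these, 6 lay within 10 running numbers of one of the 40 (14.3%), where 1.74% of all other listed models do. They lay beside 5 of the 40. Besides the pair beside evm.model.chr7.1374, they were evm.model.chr9.2049, evm.model.chr3.515, evm.model.chr2.842 and evm.model.chr7.1214, named after their values were seen. The first of these is adjacent to evm.model.chr9.2048 and had a Pearson r of 0.83 with it over the 12 Granny Val libraries. Likewise evm.model.chr3.515 is adjacent to evm.model.chr3.514 and had an r of 0.76 with it. Less alike were evm.model.chr2.842 and evm.model.chr2.849, 7 numbers apart with an r of 0.29, and evm.model.chr7.1214 and evm.model.chr7.1224, 10 numbers apart with an r of 0.38. Without replicate 3 of layers 2 and 3 these r were 0.76, 0.76, -0.11 and 0.46, in the same order. These r, and those beside evm.model.chr7.1374, were taken over log levels that include the differences between layers. No r of other neighbouring models is given beside them. Whether these adjacent models are alike in sequence could not be checked.

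How far the 40 models varied together across the 12 Granny Val libraries was read from log levels taken as deviations from each layer's mean. The median Pearson r over their 780 pairs was 0.12, beside 0.09 over pairs of all 11397 models, and 4.23% of pairs had an r over 0.8, beside 3.55%. Without replicate 3 of layers 2 and 3 the median was 0.27, beside 0.06 over pairs of all models. These values are descriptions over libraries that share layer, depth and sampling. The highest were those of evm.model.chr4.2082 with evm.model.chr10.1380 and with evm.model.chr13.898, both 0.95, and both 0.91 without that pair of libraries. The first 7 models by ratio had an r between -0.51 and -0.08 with the most read model, evm.model.chr18.1688. Without that pair of libraries these r ran from -0.51 to 0.70, so that the upper end of the range rests on 2 libraries.

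How far the order held in libraries that had no part in the choice was examined by applying the rule to 2 replicate numbers and computing the ratio in the one left out. With replicate 1 left out, 25 of the 40 models so chosen had a ratio above 1 in it. With replicate 2 left out 14 did, and with replicate 3 left out 18 did. Of all models over the minimum, 0.903%, 0.372% and 0.740% had a ratio above 1 in these replicates. Among the 7 models ranked first by the other 2 replicates, 7, 7 and 6 were above 1 in the replicate left out, in the same order. A ratio of at least 2 was kept by 11, 8 and 6 of each 40, and the median left-out ratio was 1.28, 0.636 and 0.941. Nearly all of the first 7 were thus above 1 again, and many of the rest were not. The left-out ratio was taken from 1 library per group and the choice from means of 2. The sizes of the left-out ratios are therefore not on the same footing as those of the choice. The cut at 7 was set with the ratios from all replicates known, so these counts are descriptions.

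The same rule applied to the other cultivars gave more models. A ratio of at least 2 was found for 12 models in Granny Val, 46 in Alachua and 21 in Supreme. The numbers with every library above all libraries of the other cultivars were 10, 27 and 17, in that order of cultivars. The largest ratio was 116 in Granny Val, 429 in Alachua and 102 in Supreme. The ratio of the model at place 40 was 1.28 in Granny Val, 2.15 in Alachua and 1.52 in Supreme. These counts come from the same 36 libraries and are given without a test.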

How the data were processed

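Whole-number read counts per gene model were deposited for each library. Tools named without roles were HTSeq 0.11.2, STAR, cutadapt, DESeq2 and SAMtools, per the submitters' processing notes. Genome build, annotation and strand setting: not given in the sources used here. The library kit keeps strand, per the labels' protocols. Counts of near-identical copies and of overlapping models are uncertain.

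The 5 special counter lines, 11.7% to 18.3% of a library's counts, were left out. From the deposited counts, CPM and the rule were computed with Python 3.11.15. Tests used edgeR 4.0.16 (R 4.3.3), TMM scaling, the filterByExpr filter by group, 12 group means over 36 libraries and Benjamini-Hochberg adjustment over 19241 models; calls needed an adjusted p under 0.05 and a 2-fold change. The fit was also run on counts simulated with the same spread for every model. That run does not show how it performs for more variable models. DESeq2 1.42.0 and the settings of the closing section were alternatives. No 2 libraries were identical. Replicate numbers were checked for pairing by the r of deviations from the group means. Among the groups compared, Granny Val layers 2 and 3 had all 3 same-numbered pairs over 0.1 (r 0.354, 0.400 and 0.378). So did Supreme layers 2 and 4 (r 0.202, 0.120 and 0.202). Both come from the data and not the labels. The change from layers 1 and 2 to layers 3 and 4 was compared between cultivars without a block. The median r of same-numbered and of other pairs was 0.036 and 0.0041 in Granny Val, -0.187 and 0.133 in Alachua, 0.050 and -0.0081 in Supreme, and -0.013 and -0.025 between Alachua and Supreme. Nothing in the labels ties replicates to separate plants, so p-values measure the spread between these libraries, which may be technical. With counts of 0, the floor is 3 counts; counting intervals are exact binomial at 95%.

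The 40 models, the lists and the tests were chosen with earlier results of these data known. Models named are the first 5 by ratio, the 3 most read in Granny Val, the last inside and first outside the rule, members 10 or fewer running numbers apart, and at most 2 called higher and 2 lower per contrast; others are marked where they appear. The 6 Alachua and Supreme libraries nearer another layer were found by mean log2 CPM over 363 models higher in layer 1 and 283 higher in layers 3 and 4 of Granny Val.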

Additional observations from a re-analysis of the deposited data

How the results depend on the processing

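Of the 149 recomputed counts behind the comparisons, 145 stayed within 1.5 times their value and 4 moved. Across the 4 Granny Val layers DESeq2 called 2 of the 40 in place of 1, as did edgeR without replicate 3 of Granny Val layers 2 and 3, a setting chosen after seeing the data, under which the other Granny Val contrasts kept their counts. With no fold minimum, 1 of the 40 was called for layers 1 and 2 over layers 3 and 4 in place of 0. From the libraries with numbered names alone (25 of 36, 7 of 12 in Granny Val), the rule found 22 of the 40 again; the cause was not tested. Under the other settings the rule found 38 with a pseudocount of 1, 30 with a minimum of 5 CPM, 36 on TMM-scaled library sizes and 28 from group medians. Leaving out replicate 1, 2 or 3 of every group, Granny Val layer 3 replicate 2 alone, or replicate 3 of Granny Val layers 2 and 3, left between 27 and 37, and 9 of the 40 were found in each of 11 alternatives. Leaving out 1 library at a time gave 1 to 1 calls across the 4 layers and for layer 1 over layer 2, 0 to 0 in the other Granny Val contrasts, and 6 to 11 for Alachua over Supreme, lowest without Alachua layer 1 replicate 1. That contrast gave 9 calls with RLE scaling and with no filter, 10 with no fold minimum and without the 6 libraries, 12 with a covariate for numbered library names and with DESeq2, and 7 from Alachua and Supreme alone. No direction reversed, and 34 recomputed values of single models lost their call.

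With the replicate number as a block, 1 of the 40 was called across the 4 layers and 1 for layer 1 over layer 2, 0 in the other Granny Val contrasts and 10 for Alachua over Supreme. In a fit of Granny Val layers 2 and 3 alone, added after seeing the data, the block gave 0 of the 40 for layer 2 over layer 3. The block moved no count among the 40 by over 1.5 times. Counting depth limits the models near 0 in Alachua and Supreme, where 1 count decides the ratio.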
